A study of Macaca mulatta with 2 samples.

Results

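The genes examined here encode the adhesion molecules, scaffolds and linkers of the node of Ranvier and its flanks, and comprise *CNTN1*, *CNTNAP1*, *NFASC*, *EPB41L3*, *CNTN2*, *CNTNAP2*, *NRCAM*, *ANK3*, *SPTBN4* and *GLDN*. They were taken by symbol, and all 10 were found among the 16684 genes listed for the macaque (*Macaca mulatta*) optic nerve. The study sequenced RNA of wild-type, untreated optic nerves, which formed 1 group of 2 libraries named Rep1 and Rep2. The methods name a single 12-year-old male, from whom the nerves were taken after death, whereas the deposited design names different animals, so the libraries are nerves of either the same or separate macaques and their spread may be technical. The nerve holds axons and glia, while the cell bodies of the retinal ganglion cells lie in the retina. No other condition was sequenced, so the values below describe levels and the spread between the libraries, with no test of a condition.

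Myelinated axons conduct by regenerating the action potential at nodes, short gaps in the myelin where sodium channels are clustered. On the axon, ankyrin-G (*ANK3*) and the spectrin encoded by *SPTBN4* hold the channels together with the cell adhesion molecules neurofascin (*NFASC*) and NrCAM (*NRCAM*). At the paranode beside the node, contactin-1 (*CNTN1*) and Caspr (*CNTNAP1*) on the axon bind the glial form of neurofascin on the myelin loops, and the linker encoded by *EPB41L3* ties this junction to the cytoskeleton. In the juxtaparanode beyond it, contactin-2 (*CNTN2*), which oligodendrocytes also make, and Caspr2 (*CNTNAP2*) gather voltage-gated potassium channels. Gliomedin (*GLDN*) is a Schwann cell ligand of peripheral nodes.

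NFASC and NRCAM share ankyrin as a partner, and their coding sequences are shown because they carry the same ankyrin-binding site of the L1 family in their cytoplasmic tails. The site was located in the longest coding sequence of each gene in the RefSeq annotation of Mmul_10, read in frame on the coding strand, with the pattern TTNATNGGNCANTAN, in which N is any base. The pattern occurred in 13 of 19764 coding sequences (0.0658%), with *L1CAM*, another member of the family, among them and *CHL1* without a match. A missing match to this exact pattern does not show that *CHL1* lacks an ankyrin-binding site. As N is any base, the pattern also fits codons of other amino acids, so a match alone does not establish such a site. The site lies within 1 coding exon in each gene, at chr1:62538670-62538684 on the plus strand for *NFASC*, at chr3:134473234-134473248 on the minus strand for *NRCAM* and at chrX:149844072-149844086 on the minus strand for *L1CAM*. Capitals mark the bases that match the pattern.
NFASC: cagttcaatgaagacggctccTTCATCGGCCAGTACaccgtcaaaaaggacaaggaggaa
NRCAM: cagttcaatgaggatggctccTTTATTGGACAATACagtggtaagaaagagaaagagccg
L1CAM: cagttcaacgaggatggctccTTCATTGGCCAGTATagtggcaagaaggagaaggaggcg
Of the 60 bases shown, 43 were identical between *NFASC* and *NRCAM*, 48 between *NFASC* and *L1CAM*, and 51 between *NRCAM* and *L1CAM*. Over whole coding sequences, *NFASC* and *NRCAM* were 59.4% identical in 3871 aligned bases, *CNTN1* and *CNTN2* 59.6% in 3001, and *CNTNAP1* and *CNTNAP2* 59.8% in 3611. The longest run of identical bases was 17 for the first pair, 12 for the second and 20 for the last. Only the longest coding sequences were compared, and the sharing of reads between these paralogs was not examined.

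The values are TPM, in which reads are divided by gene length and each library is scaled to a total of 1000000. Rep1 was the shallower library, with 17.2 times as many TPM per read as Rep2, and it listed 6425 genes (38.5%) at 0. The smallest whole read numbers that fit both values of a gene are given below as lower bounds, which may lie well under the true numbers. Rep1 was lower than Rep2 for most genes, with a median difference of -1.07 on the log2(TPM + 1) scale over the 14693 genes above 0 in at least 1 library, and a log2 shift of -1.19 by the median of ratios. The oligodendrocyte markers were above 0 in both libraries for all 8 genes and summed to 45915 TPM in Rep1 against 211453 TPM in Rep2. The 8 photoreceptor markers summed to 3833 TPM in Rep1 against 7.89 TPM in Rep2, being above 0 for 8 genes in Rep1 and for 7 in Rep2, with *CRX* listed at 0 there. Among 12 genes of neurons and ganglion cells, 7 were lower and 4 higher in Rep1, with a median difference of -0.02. Their sums, 2297 TPM in Rep1 against 1776 TPM in Rep2, came mostly from *SNAP25* (1122 and 4.99 TPM) and *SYT1* (769 and 11.8 TPM), which encode synaptic proteins, and from *THY1* (203 and 1535 TPM), a surface protein of neurons, which went the other way. *SLC17A6* was listed at 0 in both libraries, and *POU4F1* in Rep1. Rep1 therefore carried photoreceptor transcripts that Rep2 hardly held, and their part in the differences given below was not tested.

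The genes spanned a wide range of levels, from abundant *EPB41L3* and *CNTN2* to *CNTNAP1*, which was listed at 0 in Rep1. All 10 were above 0 in Rep2 and 9 were above 0 in both libraries, where 60.9% of all listed genes were. Together they summed to 252 TPM in Rep1 against 760 TPM in Rep2. *EPB41L3* alone supplied 61.1% of that sum in Rep1 and 56.2% in Rep2.

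**Figure D1:**
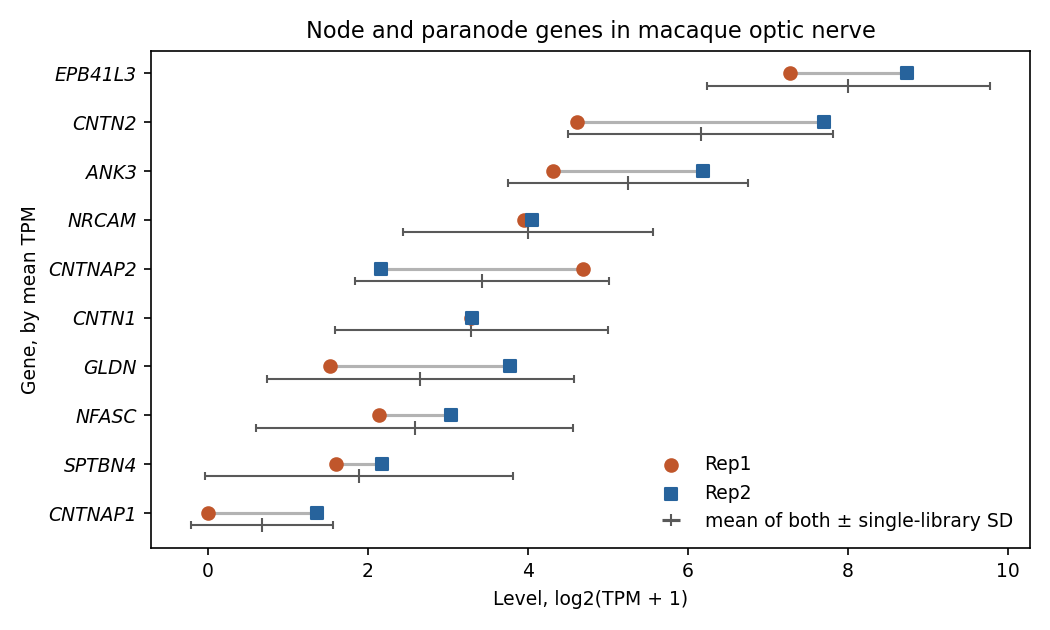
Level of each gene on the log2(TPM + 1) scale (x axis), ordered by mean TPM (y axis), with circles for Rep1, squares for Rep2, and a grey bar for the mean of both ± 1 SD as estimated for a single library, taken from the 200 genes nearest in mean level. *EPB41L3* is highest in both libraries, *CNTNAP1* is lowest in both, and *CNTNAP2* is the gene whose circle lies clearly to the right of its square.

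Of the paranodal genes, the cytoskeletal linker stood far above the adhesion molecules. *EPB41L3* (chromosome 18, 66499419 to 66743901, minus strand) was at 154 TPM in Rep1 against 427 TPM in Rep2, on at least 89 and 4229 reads, giving 291 ± 193 TPM (SD, n = 2 libraries) at percentile 96.5 of the genes above 0. It was the highest of the group in each library. *CNTN1* (chromosome 11, 40037810 to 40417009, plus strand) was at 8.80 TPM in Rep1 against 8.88 TPM in Rep2, on at least 3 and 52 reads, or 8.84 ± 0.0545 TPM (SD, n = 2) at percentile 48.5. The near equality of these values is closer than the estimated SD of a single library at this level, which was 1.71 on the log2(TPM + 1) scale, so it is no measure of precision. *NFASC* (chromosome 1, 62343840 to 62544472, plus strand) was at 3.40 TPM in Rep1 against 7.22 TPM in Rep2, on at least 17 and 620 reads, or 5.31 ± 2.70 TPM (SD, n = 2) at percentile 40.1. The annotation holds 26 transcripts of *NFASC*, and a value per gene does not separate the glial from the axonal form.

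Caspr was the least abundant of the 10. *CNTNAP1* (chromosome 16, 53814769 to 53832140, plus strand) had a value of 0 in Rep1 and of 1.57 TPM in Rep2. Of the 200 genes closest to that Rep2 value, 58.5% were also listed at 0 in Rep1, so the transcript was not detected there, which does not show that it was absent. Its exons overlap those of an uncharacterized long non-coding RNA on the opposite strand, and the use of strand in counting is not given in the sources used here, so its level is uncertain to that extent. Within Rep2, *CNTN1* was 5.64-fold and *NFASC* 4.59-fold above *CNTNAP1*, their partner on the axon. Rep1 gives no such ratio.

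The juxtaparanodal pair differed in opposite directions between the libraries, *CNTN2* being lower and *CNTNAP2* higher in Rep1 under every scaling tried. *CNTN2* (chromosome 1, 62564360 to 62598793, plus strand) was at 23.6 TPM in Rep1 against 208 TPM in Rep2, on at least 2 and 303 reads, or 116 ± 130 TPM (SD, n = 2) at percentile 90.4. It ranked 2 in Rep2 and 3 in Rep1. *CNTNAP2* (chromosome 3, 172532326 to 174787817, plus strand) was at 24.9 TPM in Rep1 against 3.49 TPM in Rep2, on at least 49 and 118 reads, or 14.2 ± 15.1 TPM (SD, n = 2) at percentile 57.4. It ranked 2 of 10 in Rep1 and 9 in Rep2, the largest change of rank in the group. The ratio of *CNTN2* to *CNTNAP2* was accordingly 0.948 in Rep1 and 59.6 in Rep2, a gap of 5.98 on the log2 scale that no scaling of a library can alter. *CNTN2* was also above *CNTN1*, its paralog at the paranode, by 2.68-fold in Rep1 and 23.4-fold in Rep2.

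Among the nodal genes, the ankyrin was the most abundant and the spectrin the least in the mean. *ANK3* (chromosome 9, 77264176 to 77966486, plus strand) was at 19.0 TPM in Rep1 against 72.0 TPM in Rep2, on at least 13 and 848 reads, or 45.5 ± 37.5 TPM (SD, n = 2) at percentile 78.5. *SPTBN4* (chromosome 19, 39684501 to 39802451, plus strand) was at 2.04 TPM in Rep1 against 3.54 TPM in Rep2, on at least 5 and 149 reads, or 2.79 ± 1.06 TPM (SD, n = 2) at percentile 31.1. *ANK3* thus exceeded *SPTBN4* 9.29-fold in Rep1 and 20.3-fold in Rep2. The level of *ANK3* depends on the gene length used, since its 17 annotated transcripts run from 7006 to 21236 bases, and the lengths the authors used are not given in the sources used here.

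The adhesion molecules that bind ankyrin at the node kept their order in both libraries. *NRCAM* (chromosome 3, 134470875 to 134776285, minus strand) was at 14.5 TPM in Rep1 against 15.7 TPM in Rep2, on at least 17 and 316 reads, or 15.1 ± 0.837 TPM (SD, n = 2) at percentile 58.6. It was above *NFASC*, whose product carries the same site, by 4.26-fold in Rep1 and 2.17-fold in Rep2. *GLDN* (chromosome 7, 27718491 to 27786515, plus strand) was at 1.90 TPM in Rep1 against 12.7 TPM in Rep2, on at least 2 and 231 reads, or 7.32 ± 7.67 TPM (SD, n = 2) at percentile 45.2. Schwann cell markers, which mark the peripheral cells known to make gliomedin, were all 7 above 0 in Rep2. As 87.5% of all listed genes were above 0 there, this count does not show that such cells were present. In Rep2 the markers summed to 33.6 TPM and were led by *PMP2*, a lipid-binding protein of peripheral myelin, at 14.5 TPM. In Rep1 they summed to 17.9 TPM, of which *EGR2*, a transcription factor of myelinating Schwann cells, made up 13.5 TPM against 4.87 TPM in Rep2, and *PRX*, *NCMAP*, *CDH19* and *DHH* were listed at 0. The part of such cells in the level of *GLDN* was not tested.

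Most neighbours in this order could not be separated. Set against the SD of a single library at their levels, 8 of the 9 neighbouring pairs by mean TPM differed by less than 1 SD. This SD includes the shift between the libraries that most genes share, and 7 pairs did so when it was taken about the mean difference. *EPB41L3* exceeded *CNTN2* by 1.85 on the log2(TPM + 1) scale, or 1.08 SDs. The other neighbours lay between 0.0353 SDs for *GLDN* and *NFASC* and 0.817 SDs for *ANK3* and *NRCAM*. The libraries gave opposite orders for 4 of the pairs, which were *NRCAM* and *CNTNAP2*, *CNTNAP2* and *CNTN1*, *CNTN1* and *GLDN*, and *GLDN* and *NFASC*. The genes most like *EPB41L3* over the 2 libraries, by distance on the log2(TPM + 1) scale, were *NNAT* (0.0631), *ITGB1* (0.139) and *IER2* (0.147), and 25 genes lay within a distance of 0.5.

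Between the libraries, the group as a whole moved as other genes did, while *CNTN2* and *CNTNAP2* lay towards the ends. On the log2(TPM + 1) scale, 5 of the 10 genes were at least 2-fold lower in Rep1, where 51.3% of all genes above 0 were, and 1 was at least 2-fold higher, where 14.8% of all genes were. The shares for the group thus lay near the background. The median difference of the 10 genes was -1.13, beside -1.07 for all genes. After scaling by the median of ratios the median was -0.09, beside -0.38 for all genes, with 3 genes at least 2-fold lower (33.8% of all genes) and 3 at least 2-fold higher (23.7%).

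**Figure D2:**
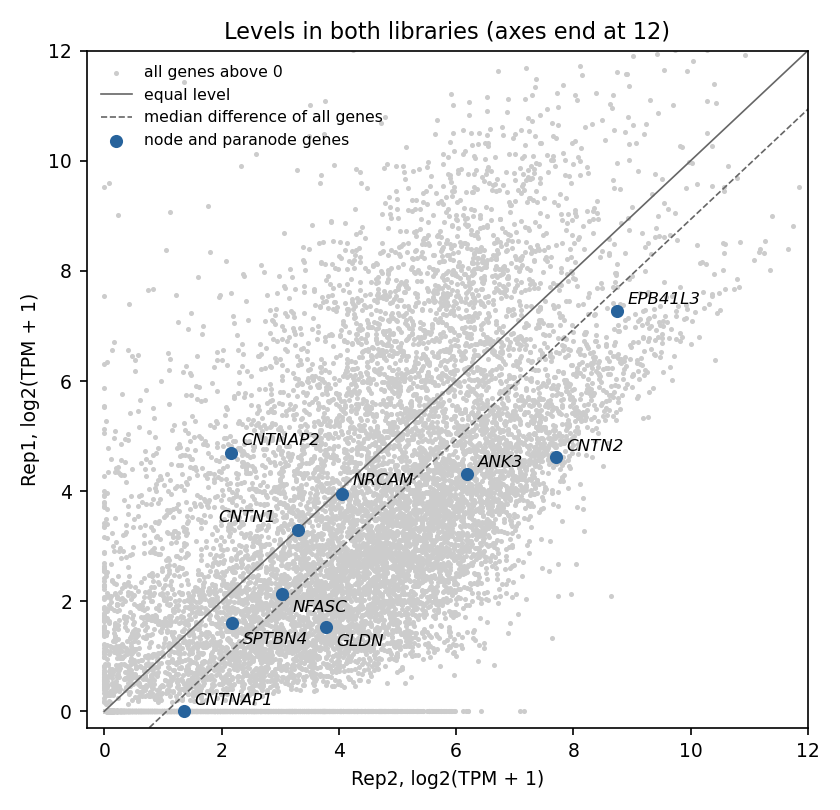
Level in Rep2 (x axis) against level in Rep1 (y axis), both as log2(TPM + 1), for all genes above 0 in at least 1 library (grey) and the 10 node and paranode genes (blue), with a solid line at equal level and a dashed line at the median difference of all genes, -1.07. *CNTNAP2* is the only one of the 10 clearly above the solid line, and *CNTN2*, *GLDN*, *ANK3*, *EPB41L3* and *CNTNAP1* lie below the dashed line.

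*CNTN2* had the lowest difference, with -3.09 as deposited and -1.92 after scaling, and 11.5% of all genes had a difference as low as deposited. *GLDN* followed with -2.25 and -1.29, and *ANK3* with -1.87 and -0.71, although *ANK3* was higher in Rep1, with 0.50, when Rep1 was scaled to the oligodendrocyte markers. *CNTNAP2* had the highest difference, with 2.53 as deposited and 3.54 after scaling, and 5.69% of all genes reached it. *CNTNAP1*, listed at 0 in Rep1, had -1.36 and -1.03. For 4 genes the sign depended on the scaling. *NRCAM* went from -0.11 to 1.01, *CNTN1* from -0.01 to 1.06, *NFASC* from -0.90 to 0.09 and *SPTBN4* from -0.58 to 0.29, so no direction was assigned to them. *EPB41L3* was lower in Rep1 under both, with -1.46 and -0.28, and likewise higher there, with 0.97, under the scaling to these markers, which was chosen after seeing the data. In bulk tissue, fewer cells of a type and less RNA per cell cannot be told apart.

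The other genes of these domains were described by lists, named here for the domain. All 8 genes of the glial paranodal loop and of galactolipid synthesis were lower in Rep1 as deposited. Of these, 7 were at least 2-fold lower, where 51.3% of all genes above 0 were. Their median difference was -2.52 as deposited and -1.37 after scaling. *MAG*, a myelin adhesion molecule facing the axon, was at 116 TPM in Rep1 against 907 TPM in Rep2, and *CNP*, a myelin enzyme, at 46.6 and 325 TPM. *GAL3ST1*, which makes the sulfatide that paranodes require, was at 3.01 TPM in Rep1 against 51.8 TPM in Rep2. The oligodendrocyte markers had a median of -2.43, with differences from -3.32 to -2.19. The differences of *CNTN2*, at -3.09, and *GLDN*, at -2.25, lay inside that range, and those of the other 8 genes of the node and paranode lay outside it. That range was not particular to oligodendrocytes, since the medians of other marker lists were -3.16 for fibroblasts, whose range from -3.67 to -2.76 also held *CNTN2*, -2.26 for microglia and macrophages, and -2.17 for astrocytes. Scaled to the oligodendrocyte markers, the glial paranodal list had a median of -0.34.

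The potassium channel complex of the juxtaparanode lay on the other side, as *CNTNAP2* did. Of its 8 genes, 5 were at least 2-fold higher in Rep1, where 14.8% of all genes above 0 were. Another 1 was at least 2-fold lower, where 51.3% of all genes were. The median was 1.36 as deposited, 2.47 after scaling and 3.75 when Rep1 was scaled to the oligodendrocyte markers. *KCNA1* and *KCNA2*, which encode the channel subunits that Caspr2 gathers, were at 34.8 and 12.6 TPM in Rep1 and at 5.27 and 1.38 TPM in Rep2. The lower bounds on their reads were 5 and 9 in Rep1 and 13 and 17 in Rep2, and the true numbers are not known. The auxiliary subunit gene *KCNAB1* was at 63.2 TPM in Rep1 against 20.3 TPM in Rep2, and *KCNAB2* at 14.7 and 6.19 TPM. *DLG4*, a scaffold of synapses and juxtaparanodes, was highest in the list by mean, with 144 TPM in Rep1 against 3.57 TPM in Rep2, followed by *DLG2* at 74.4 and 41.7 TPM. *LGI3*, a secreted ligand of *ADAM22*, was the exception, with 0.317 TPM in Rep1 against 8.60 TPM in Rep2. The photoreceptor markers had a median difference of 2.69, and the list of neurons and ganglion cells, which holds *SNAP25* and *SYT1*, one of -0.02. The part of such transcripts in the levels of *CNTNAP2* and the channel genes was not tested.

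**Figure D3:**
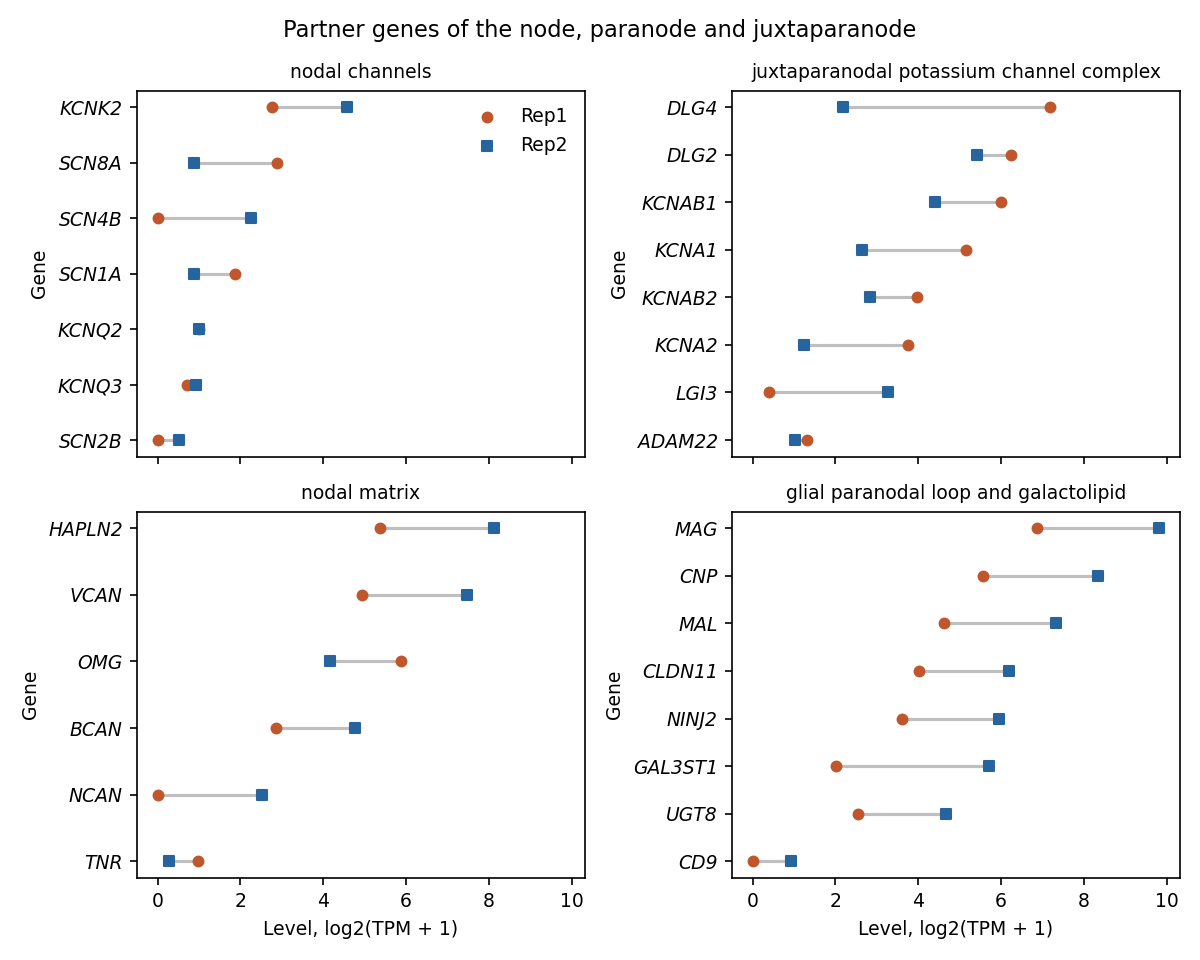
Levels of partner genes as log2(TPM + 1) (x axis) by gene (y axis, ordered by mean TPM) in 4 lists, with circles for Rep1 and squares for Rep2. In the potassium channel list 7 of 8 circles lie to the right of their squares, and in the glial paranodal list all 8 lie to the left.

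The nodal channel genes reported here were mostly low. Of these 9 genes, 7 were in the table and 5 were above 0 in both libraries. The leak potassium channel gene *KCNK2* was highest of them by mean, with 5.76 TPM in Rep1 against 22.8 TPM in Rep2. *SCN8A*, the main sodium channel of mature nodes, was at 6.38 TPM in Rep1 against 0.830 TPM in Rep2, on at least 21 and 47 reads. *SCN1A*, a related channel, was at 2.66 TPM in Rep1 against 0.841 TPM in Rep2. *SCN2B* and *SCN4B* were listed at 0 in Rep1. The list had a median difference of -0.22 as deposited, which changed sign to 0.29 after scaling and to 1.22 under the scaling to oligodendrocyte markers. As deposited, 2 genes were at least 2-fold lower in Rep1 (51.3% of all genes above 0) and 1 was at least 2-fold higher (14.8%).

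Matrix genes of the node were lower in Rep1 as deposited and after the median of ratios, with the exception of *OMG* and *TNR*, while the list's median changed sign under the scaling to oligodendrocyte markers. *HAPLN2*, a link protein of central nodes, was at 40.3 TPM in Rep1 against 278 TPM in Rep2, and the proteoglycan gene *VCAN* at 29.7 and 178 TPM. *OMG*, which encodes oligodendrocyte myelin glycoprotein, was at 57.5 TPM in Rep1 against 16.8 TPM in Rep2. Of the 6 matrix genes, 4 were at least 2-fold lower in Rep1 (51.3% of all genes above 0) and 1 was at least 2-fold higher (14.8%). The median was -2.22 as deposited, -1.11 after scaling and 0.09 when Rep1 was scaled to the oligodendrocyte markers.

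The relatives of *ANK3*, *SPTBN4* and *EPB41L3* were in part more abundant than the nodal genes themselves. *ANK2*, which encodes another ankyrin of axons, was at 101 TPM in Rep1 against 134 TPM in Rep2, above *ANK3* in both libraries. *SPTAN1*, the alpha spectrin of axons and glia, was at 85.4 and 198 TPM, and *SPTBN1*, a widespread beta spectrin, at 91.9 and 110 TPM, both above *SPTBN4* in each library. *EPB41L2* was at 583 TPM in Rep1 against 212 TPM in Rep2, above *EPB41L3* in Rep1 and below it in Rep2. Coding sequences of *EPB41L3* and *EPB41L2* were 69.5% identical in 2952 aligned bases, with a longest identical run of 21 bases. Of the 9 genes in this list, 3 were at least 2-fold lower in Rep1 (51.3% of all genes above 0) and 1 was at least 2-fold higher (14.8%). The median was -0.65 as deposited, -0.02 after scaling and 1.22 under the scaling to oligodendrocyte markers. *ANK1* and *SPTBN5* were listed at 0 in Rep1.

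**Figure D4:**
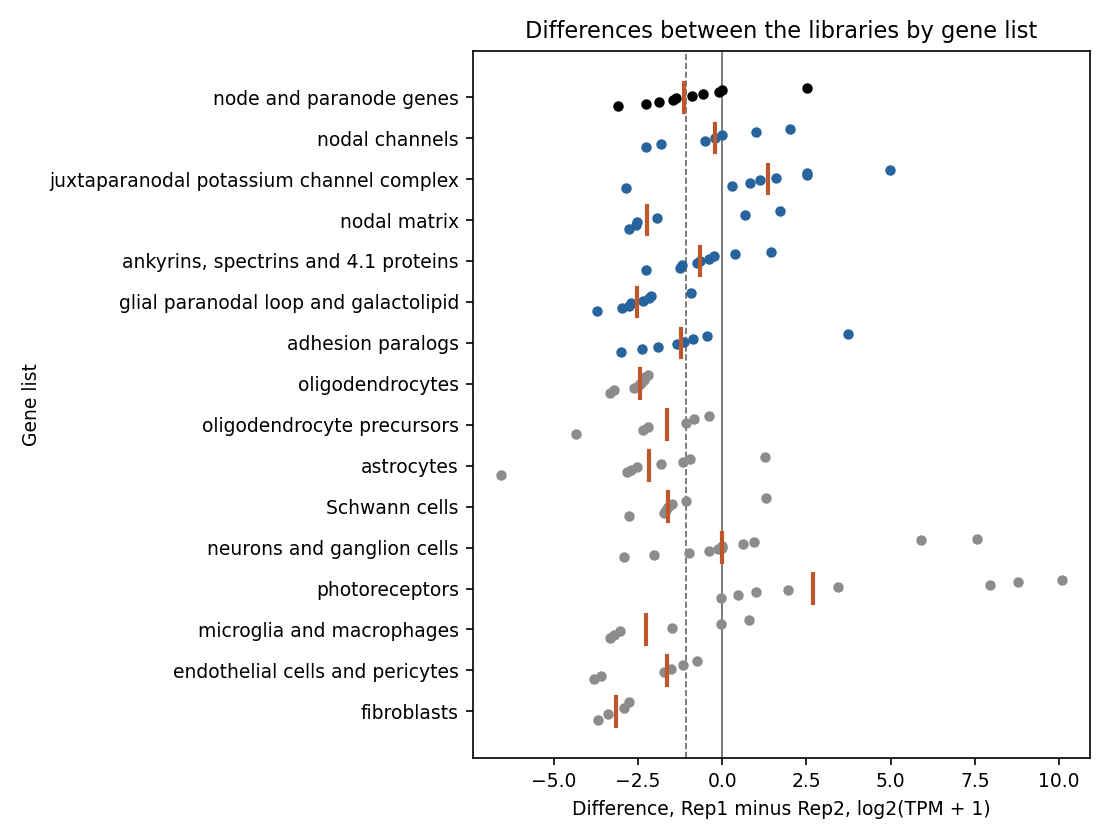
Difference between the libraries, Rep1 minus Rep2 on the log2(TPM + 1) scale (x axis), for each gene of the node and paranode group (black), the partner lists (blue) and the cell type marker lists (grey), by list (y axis), with orange bars at the medians, a solid line at 0 and a dashed line at the median of all genes, -1.07. The median of the node and paranode genes, -1.13, lies beside the dashed line, that of the juxtaparanodal potassium channel complex is 1.36, and that of the glial paranodal list is -2.52.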

How the data were processed

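Total RNA of macaque optic nerve was made into amplified cDNA libraries with a SMARTer low-input kit. Per the submitters' processing notes and the methods, the authors used Trim Galore 0.6.6 for trimming, STAR 2.7.1a for alignment to Mmul_10 and featureCounts 1.5.3 for counting, and deposited TPM values for 16684 genes in Rep1 and Rep2, which no label pairs with a sample title. Read totals are not part of a TPM table, so no counting interval or detection limit was computed. Relative depth came from ratios of values that are whole read ratios in 10157 of 10168 genes (tolerance 1e-11). The libraries were compared as log2(TPM + 1), so differences of low genes are understated. The single-library SD came from the 200 genes nearest in mean level and includes the shift of Rep1 against Rep2 that most genes share. The members, the lists and the naming rule (all members, listed partner genes, the highest markers or those at 0, and the 3 genes most like the highest member) were chosen with earlier results of these data known; the partner genes described, *SNAP25*, *SYT1* and *EGR2* were picked after their values were seen. Python 3.11.15, numpy 2.4.6, pandas 2.3.3 and Biopython 1.88 were used, and the methods were tested on simulated data. Alternatives were a smaller pseudocount (0.1), median-of-ratios scaling, removal of the 10 most abundant genes, geometric means, other gene sets, the 500 nearest genes and single libraries. The values of some listed genes are not reported here, and the lists were computed without them.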

Additional observations from a re-analysis of the deposited data

How the results depend on the processing

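No paired analysis was possible because there is only 1 group. Scaling by the median of ratios gave 3 members at least 2-fold lower (33.8% of all genes) and 3 at least 2-fold higher (23.7%) in Rep1. As deposited there were 5 (51.3% of all genes) and 1 (14.8%), as this scaling raises Rep1. Scaling Rep1 to the oligodendrocyte markers, chosen after seeing the data, multiplied it by 5.41 and gave 1 and 5. The median difference reversed to 1.10, *EPB41L3* to 0.97 and *ANK3* to 0.50. This scaling raises every gene above 0 in Rep1, so these changes are not particular to the members. The other alternatives gave 6 lower and 1 higher with a pseudocount of 0.1 and without the 10 most abundant genes. Shares over all genes were not computed for these alternatives or for the scaling to oligodendrocyte markers. Neighbours within 1 SD numbered 7 or 8 under all alternatives, and 9 members had at least 1 TPM in both libraries. Of 60 alternative mean levels, 11 moved beyond 1 SD, as did 18 of 39 percentiles. For mean levels, each of 2 libraries always lies within 1 SD of their mean, so single libraries say nothing of stability. The main percentiles were ranked among genes above 0 and those of single libraries among all listed genes. Moves of the latter therefore include the change of gene set. The lowest bounds on reads in Rep1 were those of *CNTN1*, *CNTN2* and *GLDN*, besides *CNTNAP1* at 0. Such bounds do not rank the genes by their true read numbers, which are not known.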

Other observations

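The adhesion paralogs of these genes were mostly low. Of the 9 in the list, 8 were in the table, and *CNTN3*, *CNTN5*, *CNTNAP4*, *CNTNAP5* and *L1CAM* were listed at 0 in Rep1. *CHL1*, a cell adhesion molecule of the L1 family, was at 4.48 TPM in Rep1 against 42.7 TPM in Rep2. *CNTN4* was at 37.7 TPM in Rep1 against 1.92 TPM in Rep2, the highest difference of this list at 3.73 on the log2(TPM + 1) scale. *L1CAM*, whose coding sequence carries the ankyrin-binding site printed above, was at 2.76 TPM in Rep2.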
